A study of Mus musculus with 6 samples.

Results

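The genes described here encode the machinery that sets the activity of eIF2, the factor that brings the initiator tRNA to the ribosome. They were chosen by name: the 4 eIF2α kinases (Eif2ak1 to Eif2ak4), eIF2α itself (Eif2s1) and the 5 subunits of the exchange factor eIF2B (Eif2b1 to Eif2b5). Of these 10 genes, 9 had a probe set annotated with their symbol alone, among 19937 genes measured. Eif2s1 was not analysed here, because no annotated probe set carried its symbol. Each of the 9 measured genes had a single such probe set.

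RNA was taken from pooled polysome fractions of sucrose gradients, so the arrays report mRNA that sedimented with several ribosomes. The cells were T-ALL #483, a single clone of mouse T-cell acute lymphoblastic leukaemia on a C57BL6 background. In the first group, 3 samples were titled untreated. In the other, 3 samples received 4EGI-1, a small molecule that blocks binding of eIF4E to eIF4G, at 100 µM for 2 h. The design text sets 4EGI-1 against the solvent DMSO while the sample titles read untreated, so whether the control cells received DMSO is not settled. The samples are described as biological replicates.

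eIF2 carries the initiator tRNA in its GTP-bound form and leaves the ribosome bound to GDP. eIF2B, a decamer with each of its subunits in duplicate, exchanges GDP for GTP and so recharges eIF2. Each eIF2α kinase senses a different stress and phosphorylates eIF2α, which turns eIF2 into an inhibitor of eIF2B. Global initiation then falls while a few mRNAs with upstream reading frames, among them that of the transcription factor ATF4, are translated more. This programme is the integrated stress response.

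Array medians lay between 6.38 and 6.43 on the log2 scale, and arrays of a group correlated at 0.996 to 0.997 across genes. The labelled cell type was borne out by its markers. All 14 measured T-cell markers lay above the median of the table. Their mean list signals were 10.31 to 10.32 in untreated and 10.11 to 10.16 in 4EGI-1 samples. Of the 14, 6 were lower with 4EGI-1 at a limma adjusted p under 0.05, against 11.5% of all genes. Of 7 measured B-cell markers 2 lay above that median, of 10 myeloid markers 1, of 9 stromal and endothelial markers 6 and of 5 erythroid markers 4. That median is a low bar, since 11028 of the 19937 genes reached it. Above the 75th percentile of the table, which 5700 genes exceeded, lay 11 of the T-cell markers. So did 1 erythroid and 1 stromal or endothelial marker, and no B-cell or myeloid marker. The brightest erythroid marker, the transferrin receptor gene Tfrc, is also expressed by dividing cells. The part of these cell-type markers in the results below was not tested. In such bulk samples, fewer cells of a type and less RNA per cell cannot be told apart. Nor can a larger amount of an mRNA be told apart from a larger share of it on polysomes, since total RNA was not analysed here.

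After 4EGI-1, the polysomal mRNA of 1 kinase rose clearly, that of another fell slightly, and those of the other kinases and of all 5 eIF2B subunits did not pass the test. Eif2ak3, which encodes the endoplasmic reticulum kinase PERK, was 1.75 times its untreated level. Eif2ak2, which encodes the double-stranded RNA sensor PKR, was 0.854 times its untreated level, a call that ended when any of 5 of the 6 samples was left out. In limma's fit over all genes, 1 of the 9 measured genes was thus higher and 1 lower at an adjusted p under 0.05, the threshold used throughout. Over all genes 22.9% passed, 11.5% in each direction, so the count of 2 in 9 is near the background. The median log2 difference (4EGI-1 minus untreated) was -0.04 over the 9 genes and -0.03 over all genes.

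**Figure D1:**
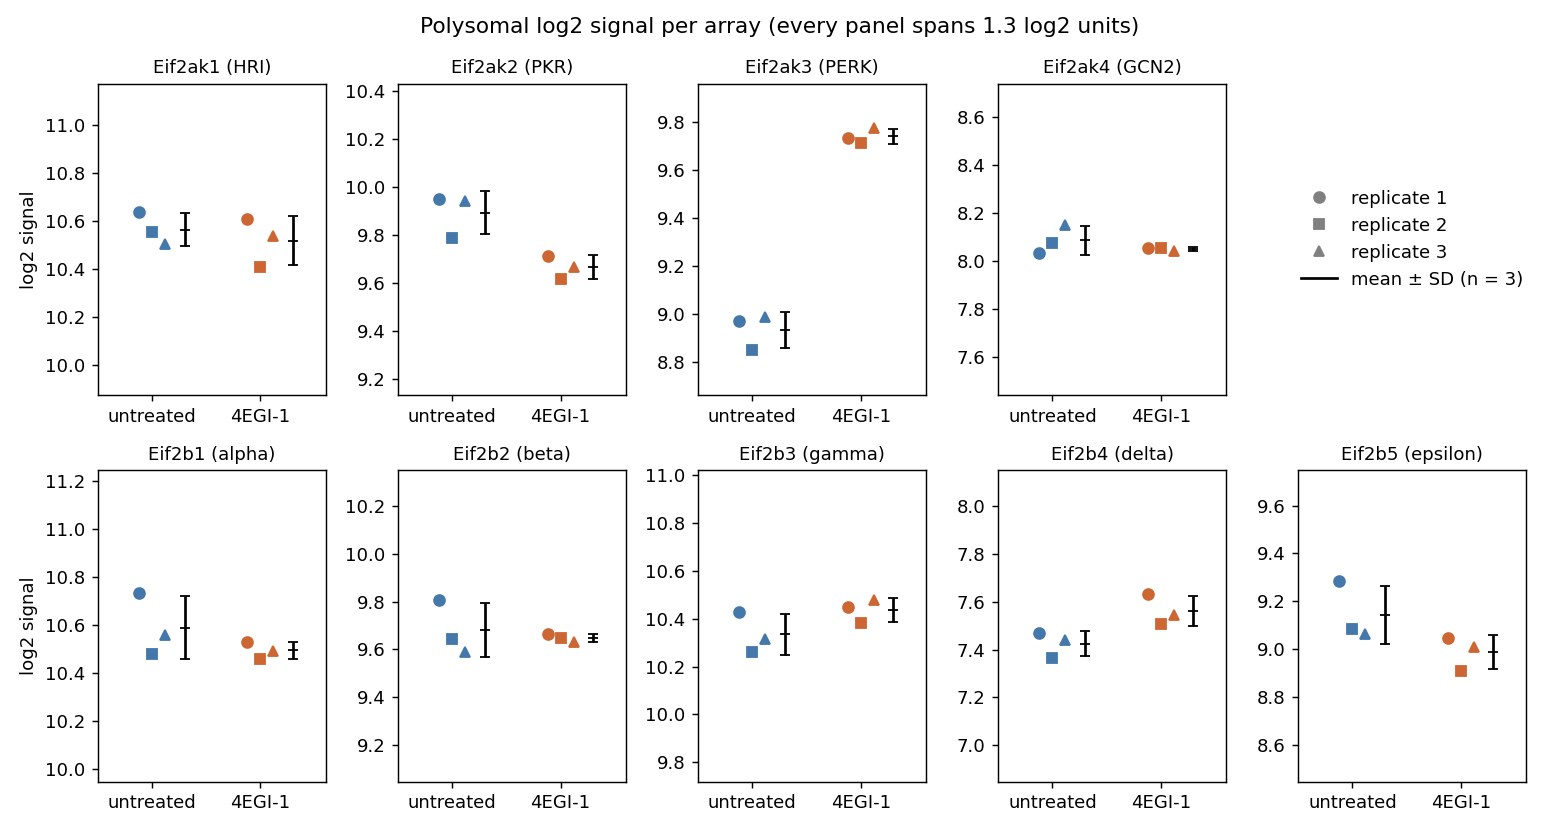
Log2 signal of the 9 measured genes on each of the 6 arrays, 1 panel per gene, with the mean and SD of each group (n = 3) beside the points. Every panel spans the same range, and the groups of Eif2ak3 lie far apart, at 8.85 to 8.99 in untreated and 9.71 to 9.78 in 4EGI-1 samples.

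PERK spans the membrane of the endoplasmic reticulum and is activated when unfolded proteins accumulate in its lumen. The log2 signal of Eif2ak3 was 8.97, 8.85 and 8.99 in untreated samples 1 to 3, and 9.73, 9.71 and 9.78 in 4EGI-1 samples 1 to 3. The groups did not overlap, and the gap between them was several times the spread within either. The difference was 0.81 ± 0.06 on the log2 scale (SE, n = 3 each; limma adjusted p = 0.000120, 95% interval 0.66 to 0.95). It was the 340th largest increase among the 19937 genes. In all 15 alternative settings the call stood, with differences of 0.76 to 0.83 and adjusted p-values of 5.61e-08 to 0.00168.

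The 250 bases before the annotated start of Eif2ak3 are shown because this was the member that rose. They come from RefSeq promoter windows (GRCm38.p6, chr6:70844265-70844514, plus strand), and capitals mark the CCAAT box on either strand (CCAAT, or ATTGG where it reads on the other).
Eif2ak3: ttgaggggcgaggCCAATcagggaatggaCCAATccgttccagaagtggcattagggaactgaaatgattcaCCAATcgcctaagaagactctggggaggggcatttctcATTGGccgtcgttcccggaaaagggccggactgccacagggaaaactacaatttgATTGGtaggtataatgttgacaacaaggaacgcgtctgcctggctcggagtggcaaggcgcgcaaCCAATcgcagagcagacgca
The CCAAT box is bound by the factor NF-Y and is common in mammalian promoters. It occurs 6 times here, the first beginning at base -237 and the last at base -20 from the start. Of all 32851 windows of 300 bases in the RefSeq table, 37.4% held at least 1 CCAAT box and 0.0791% (26 windows) held 6 or more. Among the other members, Eif2ak1, Eif2b2, Eif2b4 and Eif2b5 each had 1, and Eif2ak2, Eif2ak4, Eif2s1 and Eif2b1 had 0 in their windows; Eif2b3 was not searched. The ER stress response element (a CCAAT box and, 9 bases on, CCACG) and the C/EBP-ATF composite site (TGATGNAA) were also searched on both strands. Neither was found in the 10 windows of the 9 genes searched, while 0.119% and 3.97% of all windows held them. The CCAAT box was chosen for counting after the sequence had been seen, and these matches describe letters, not binding. The cut of 6 is the count in Eif2ak3 itself, so the share of windows reaching it is no test.

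PKR binds double-stranded RNA and is a classical product of the interferon response. The log2 signal of Eif2ak2 was 9.95, 9.79 and 9.94 in untreated samples 1 to 3, and 9.71, 9.61 and 9.67 in 4EGI-1 samples 1 to 3. The groups did not overlap, but the lowest untreated and the highest 4EGI-1 sample lay close together. The difference was -0.23 ± 0.07 (SE, n = 3 each; limma adjusted p = 0.0475, 95% interval -0.39 to -0.07). This call was marginal. The adjusted p was 0.139 without untreated replicate 1, 0.144 without untreated replicate 3, 0.0684, 0.128 and 0.107 without 4EGI-1 replicates 1, 2 and 3, and 0.0889 with every probe set tested. The difference stayed negative in all 15 settings, between -0.28 and -0.20, with adjusted p-values of 0.00726 to 0.144.

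A stretch of 30 bases shortly after the start of Eif2ak2 is shown because it holds the letters of an interferon response site. It lies at bases 9 to 38 after the annotated start (RefSeq, GRCm38.p6, chr17:78882535-78882564, minus strand), with the match, GAAA and GAAA separated by any 2 bases, in capitals.
Eif2ak2: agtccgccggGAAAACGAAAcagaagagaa
This motif was searched on both strands, and 3.44% of all windows held it. Of the 9 genes searched, Eif2ak2 and Eif2s1 had a match. Of 23 measured of 26 listed interferon-stimulated genes, 4 rose, 3 fell and 16 did not pass, beside 11.5% of all genes in each direction. Their median log2 difference was -0.03, the same as that of all genes to this precision. Stat2, which encodes a subunit of the interferon-activated complex ISGF3, rose by 0.60 ± 0.07 (SE; limma adjusted p = 0.000682). Irf1, which encodes an interferon regulatory factor, fell by 0.53 ± 0.08 on the log2 scale (SE; limma adjusted p = 0.00266).

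HRI, encoded by Eif2ak1, restrains globin synthesis in red cell precursors short of haem and relays mitochondrial stress in other cells. Its log2 signal was 10.64, 10.55 and 10.50 in untreated samples 1 to 3, and 10.61, 10.41 and 10.54 in 4EGI-1 samples 1 to 3. The groups overlapped, and the difference was -0.05 ± 0.07 (SE; limma adjusted p = 0.727, 95% interval -0.22 to 0.12). GCN2, encoded by Eif2ak4, is activated by uncharged tRNA and by stalled ribosomes. Eif2ak4 had log2 signals of 8.03, 8.08 and 8.15 in untreated samples 1 to 3, and of 8.06, 8.06 and 8.04 in 4EGI-1 samples 1 to 3. All 4EGI-1 values lay inside the untreated range. The difference was -0.04 ± 0.06 (SE; limma adjusted p = 0.744), and its 95% interval of -0.17 to 0.10 does not reach the size seen for Eif2ak3.

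**Figure D2:**
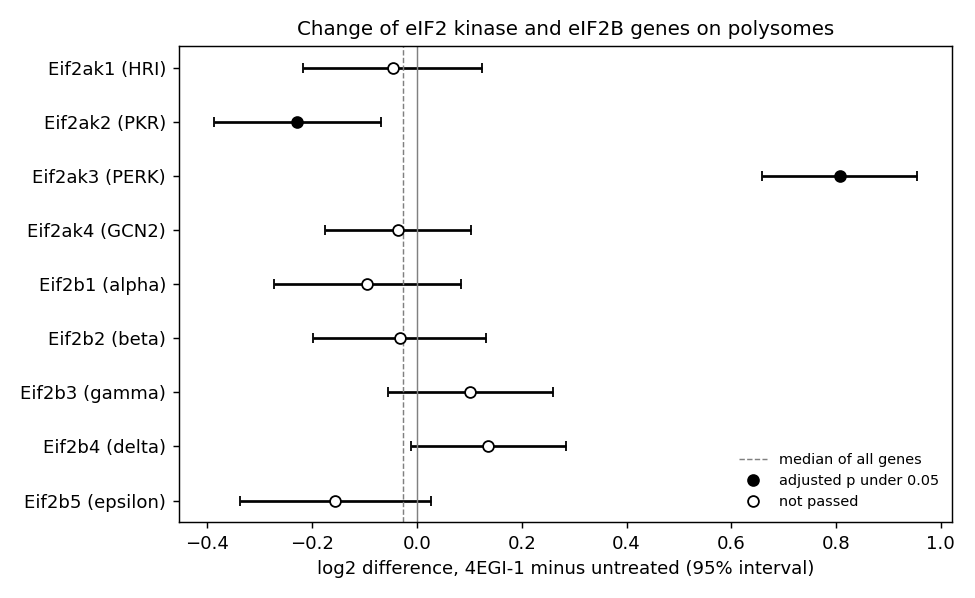
Log2 difference (4EGI-1 minus untreated) of each measured gene with its 95% interval from limma, filled where the adjusted p was under 0.05; the dashed line is the median of all genes, -0.03. Eif2ak3 stands at 0.81, Eif2ak2 at -0.23, and the intervals of the other 7 genes include 0.

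Whether the kinases differed from each other was asked with within-array log2 ratios, which cancel any shift common to an array. In 5 of the 6 kinase pairs the ratios of untreated and 4EGI-1 samples did not overlap. The pairs share genes, and the share of all gene pairs lying apart was not computed, so this count has no background. The change of Eif2ak3 exceeded that of Eif2ak2 by 1.04, that of Eif2ak1 by 0.85 and that of Eif2ak4 by 0.84 on the log2 scale. The SD of these ratios within a group was 0.02 to 0.10. The change of Eif2ak2 was lower than that of Eif2ak1 by 0.18 and than that of Eif2ak4 by 0.19, with SDs of 0.05 to 0.10. The exact two-sided permutation test gave p = 0.1 for each of these 5 pairs, the smallest that 3 against 3 samples allow (0.133 after Benjamini-Hochberg adjustment over 16 pairs, the 10 eIF2B pairs included). Eif2ak1 and Eif2ak4 changed by amounts that differed by -0.01 (exact p = 1).

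**Figure D3:**
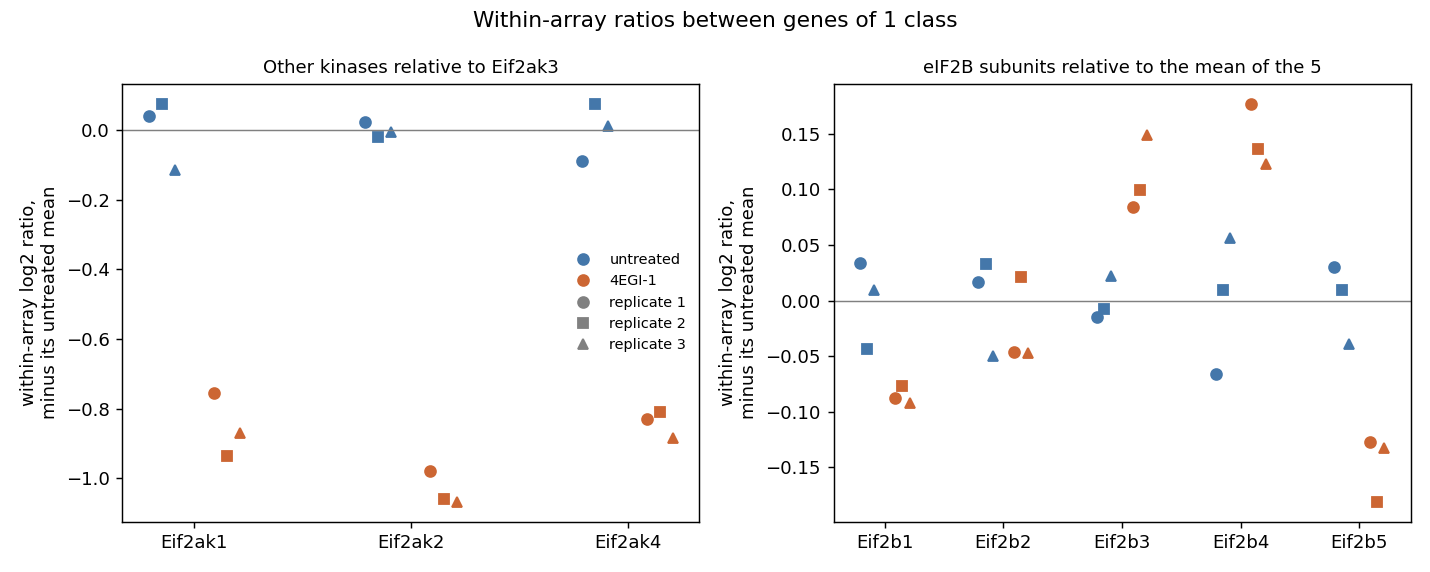
Within-array log2 ratios, minus the mean of the untreated samples, for the other 3 kinases relative to Eif2ak3 (left) and for each eIF2B subunit relative to the mean of the 5 subunits (right). Points are single arrays and symbols give the replicate number. The 4EGI-1 points at left lie well below the untreated ones, and at right Eif2b3 and Eif2b4 lie above and Eif2b1 and Eif2b5 below them.

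The catalytic part of eIF2B is formed by Eif2b5 (ε, which carries the exchange activity) and Eif2b3 (γ). The log2 signal of Eif2b5 was 9.28, 9.09 and 9.06 in untreated samples 1 to 3, and 9.05, 8.91 and 9.01 in 4EGI-1 samples 1 to 3. Its groups did not overlap, by a margin far smaller than the range within either, and the difference of -0.16 ± 0.08 did not pass (SE; limma adjusted p = 0.219, 95% interval -0.34 to 0.03). Eif2b3 had log2 signals of 10.43, 10.26 and 10.32 in untreated samples 1 to 3, and of 10.45, 10.38 and 10.48 in 4EGI-1 samples 1 to 3. Here the groups overlapped, with a difference of 0.10 ± 0.07 (SE; limma adjusted p = 0.360, 95% interval -0.06 to 0.26).

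The regulatory part, which senses phosphorylated eIF2α, is formed by Eif2b1 (α), Eif2b2 (β) and Eif2b4 (δ). Eif2b4 had log2 signals of 7.47, 7.37 and 7.44 in untreated samples 1 to 3, and of 7.63, 7.51 and 7.54 in 4EGI-1 samples 1 to 3. All 4EGI-1 values lay above the untreated ones, yet the difference of 0.14 ± 0.06 did not pass (SE; limma adjusted p = 0.187, 95% interval -0.01 to 0.29). The log2 signal of Eif2b1 was 10.73, 10.48 and 10.56 in untreated samples 1 to 3, and 10.53, 10.46 and 10.49 in 4EGI-1 samples 1 to 3. That of Eif2b2 was 9.81, 9.65 and 9.59 in untreated and 9.66, 9.65 and 9.63 in 4EGI-1 samples 1 to 3. For both genes the 4EGI-1 samples lay closer together than the untreated ones, and the groups overlapped. The differences were -0.09 ± 0.08 for Eif2b1 (95% interval -0.27 to 0.08) and -0.03 ± 0.07 for Eif2b2 (-0.20 to 0.13). Across the 9 measured members, groups did not overlap in 4 (2 higher, 2 lower). Among all genes 37.9% had such groups, 17.0% higher and 20.8% lower.

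All 5 eIF2B subunits were highest, among untreated samples, in untreated replicate 1, as were 7 of the 9 measured genes. Over all genes 33.1% were highest in that sample, and 43.7% of the 5700 genes above the 75th percentile of the table. The median excess of untreated replicate 1 over the mean of the other untreated samples was 0.19 for the eIF2B subunits and 0.00 for all genes. Without that sample the difference of Eif2b2 turned from -0.03 to 0.03, that of Eif2b1 shrank to -0.02, that of Eif2b5 to -0.09, and those of Eif2b3 and Eif2b4 were 0.15 and 0.16; none of the 5 passed (limma adjusted p = 0.205 to 0.871). Likewise, 7 of the 9 measured genes were lowest, among 4EGI-1 samples, in replicate 2, against 36.4% of all genes. Without 4EGI-1 replicate 2 the difference of Eif2ak1 turned to 0.01.

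The subunits were also set against each other within arrays; values centred on the mean of the 5 must balance around 0, so opposite signs among them are no finding. Set against the mean of the 5 subunits on the same array, Eif2b4 was at -2.08, -2.00 and -1.95 in untreated samples 1 to 3 and at -1.83, -1.87 and -1.89 in 4EGI-1 samples 1 to 3. Eif2b5 was at -0.26, -0.28 and -0.33 in untreated samples 1 to 3 and at -0.42, -0.47 and -0.42 in 4EGI-1 samples 1 to 3. These offsets depend on the probes and give no order of abundance. In 7 of the 10 subunit pairs the untreated and 4EGI-1 ratios lay apart, most widely for Eif2b4 against Eif2b5, where the changes differed by 0.29 (exact permutation p = 0.1, adjusted 0.133). With 3 against 3 samples no pair could pass this test. The 10 pairs reuse the same 5 genes, and the share of all gene pairs lying apart was not computed. The count of 7 is therefore not read as a shift in subunit balance. The pairs whose ratios overlapped were Eif2b1 with Eif2b2, Eif2b1 with Eif2b5, and Eif2b3 with Eif2b4.

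Neighbouring genes can share array signal. By the RefSeq gene table, Aimp2 and Ankrd61 overlap Eif2ak1, with log2 differences of -0.03 and 0.12, and Gm6548 overlaps Eif2ak2, with -0.04; none of these passed. No other gene measured here overlapped a member.

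The other subunits of eIF2 did not pass the test. Eif2s2 (eIF2β) differed by -0.01 ± 0.06 on the log2 scale (SE; limma adjusted p = 0.951, 95% interval -0.15 to 0.13) and Eif2s3x (eIF2γ) by 0.01 ± 0.07 (SE; 0.927, -0.14 to 0.16). A dimmer probe set of Eif2s2 gave a log2 difference of 0.20 (limma adjusted p = 0.0881 with every probe set tested). Which probe set reports Eif2s2 better was not examined. With GTP and initiator tRNA, eIF2 forms the ternary complex. In the list of eIF2 partners and other initiation factors around this complex, 5 of 11 measured genes fell, 0 rose and 6 did not pass. The median log2 difference was -0.22. Over all genes 11.5% were lower, with a median of -0.03. In the fit of the 11028 genes at or above the table's median signal, 2806 were lower. Whether the fall in this list goes beyond its signal level was not tested. The smallest adjusted p in this list belonged to Eif1b, a paralogue of the start-codon fidelity factor eIF1. It went from a mean log2 signal of 11.94 ± 0.02 to 11.39 ± 0.01 (SD, n = 3 each; limma adjusted p = 0.000326). Among 6 factors for joining or for initiator tRNA delivery without eIF2, 1 rose, 2 fell and 3 did not pass (median -0.20). Eif5b, which joins the large ribosomal subunit, rose by 0.89 ± 0.06 (SE; limma adjusted p = 8.26e-05). Mcts2, a retrocopy of the reinitiation factor gene Mcts1, fell by 0.95 ± 0.11 (SE; limma adjusted p = 0.000553), a value that is uncertain because the copies are alike in sequence.

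**Figure D4:**
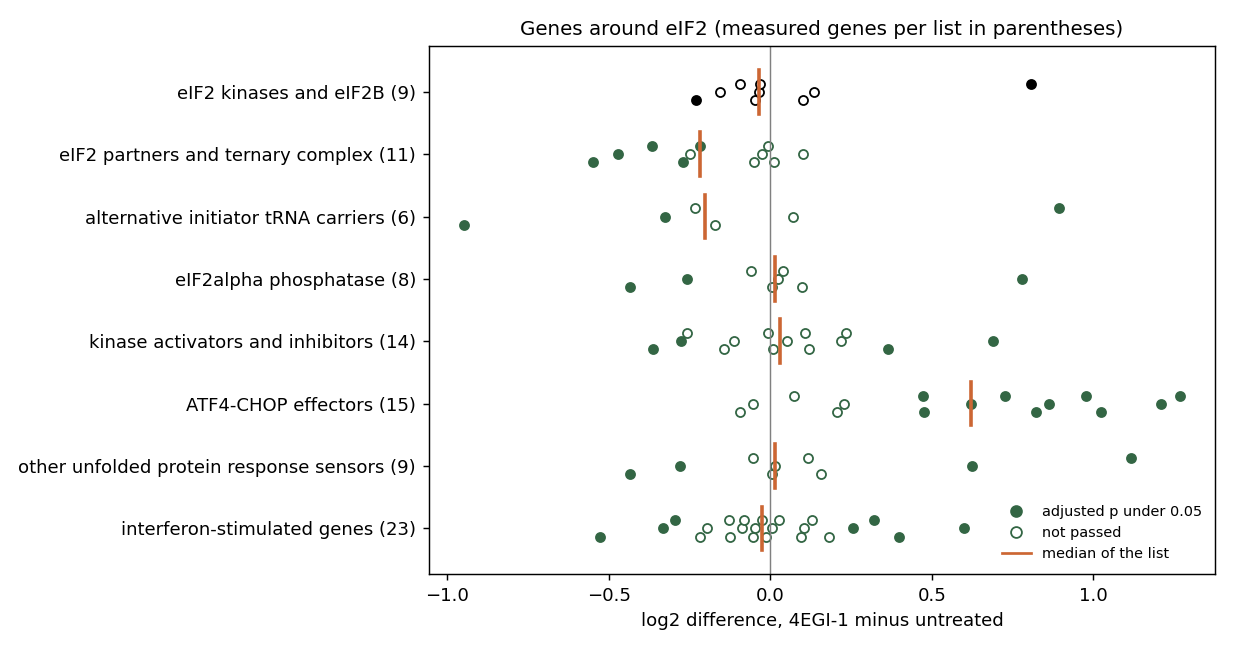
Log2 difference (4EGI-1 minus untreated) of each measured gene in the lists around eIF2, filled where the limma adjusted p was under 0.05, with a bar at each list's median. The list of ATF4 and CHOP effectors has its median at 0.62, and the medians of the other lists lie between -0.22 and 0.03. Of all genes, 11.5% passed in each direction.

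Dephosphorylation of eIF2α needs a targeting subunit bound to protein phosphatase 1. Ppp1r15a encodes GADD34, the stress-induced targeting subunit. Its log2 signal was 6.90, 6.88 and 6.99 in untreated samples 1 to 3, and 7.84, 7.52 and 7.75 in 4EGI-1 samples 1 to 3. The groups did not overlap, and it rose by 0.78 ± 0.09 (SE; limma adjusted p = 0.000546). The constitutive subunit gene Ppp1r15b differed by 0.10 ± 0.06 (SE; limma adjusted p = 0.341, 95% interval -0.05 to 0.25). A dimmer probe set of Ppp1r15b gave 0.04 (limma adjusted p = 0.733 with every probe set tested). Of 8 measured genes in the phosphatase list 1 rose, 2 fell and 5 did not pass (median 0.01). Ppp1cc, a catalytic subunit gene of protein phosphatase 1, fell by 0.44 ± 0.06 (SE; limma adjusted p = 0.00184).

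Of 14 measured activators and inhibitors of the kinases, 2 rose, 2 fell and 10 did not pass (median 0.03). Oma1, which encodes the mitochondrial protease that cleaves DELE1 to activate HRI, had log2 signals of 9.73, 9.58 and 9.61 in untreated and of 10.40, 10.29 and 10.30 in 4EGI-1 samples 1 to 3. It rose by 0.69 ± 0.07 (SE; limma adjusted p = 0.000279). Dnajc3, which encodes the chaperone P58IPK, described as an inhibitor of PKR and PERK, had log2 signals of 11.40, 11.37 and 11.32 in untreated and of 11.04, 10.99 and 10.98 in 4EGI-1 samples 1 to 3. Dnajc3 fell by 0.36 ± 0.06 on the log2 scale (SE; limma adjusted p = 0.00305). Neither gene's groups overlapped. Gcn1, the activator of GCN2, differed by 0.24 ± 0.07 and narrowly missed the threshold (SE; limma adjusted p = 0.0562). It passed in 6 of 15 alternative settings, with adjusted p-values of 0.0149 to 0.165 over all 15. Impact, an inhibitor of GCN2, differed by 0.11 ± 0.06 (SE; limma adjusted p = 0.278).

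PERK works beside other sensors of the unfolded protein response. Of 9 measured sensors, their processing proteases and targets, 2 rose, 2 fell and 5 did not pass (median 0.02). Over all genes 11.5% passed in each direction. Herpud1, a target involved in degradation of endoplasmic reticulum proteins, rose by 1.12 ± 0.06 (SE; limma adjusted p = 4.75e-05). The protease gene Mbtps1, whose product cleaves ATF6, fell by 0.43 ± 0.06 on the log2 scale (SE; limma adjusted p = 0.00182). The sensor genes Atf6 and Atf6b differed by 0.62 ± 0.07 (SE, limma adjusted p = 0.000546) and -0.28 ± 0.07 (SE, limma adjusted p = 0.0199). Ern1 and Ern2 did not pass, at 0.16 ± 0.08 (SE, limma adjusted p = 0.241) and -0.05 ± 0.07 (SE, limma adjusted p = 0.659).

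Downstream of eIF2α phosphorylation, 10 of 15 measured ATF4 and CHOP effector genes rose, 0 fell and 5 did not pass, with a median log2 difference of 0.62. Over all genes 11.5% were higher. The 5 that did not pass were Asns (0.07), Atf3 (-0.09), Cebpb (0.21), Vldlr (-0.05) and Gpt2 (0.23). This list was drawn up with the rise of ATF4 targets in these samples already known, so its count is no independent evidence of direction. Atf4 had log2 signals of 10.25, 10.26 and 10.27 in untreated samples 1 to 3, and of 10.79, 10.70 and 10.71 in 4EGI-1 samples 1 to 3. Ddit3, which encodes CHOP, had log2 signals of 7.73, 7.89 and 7.79 in untreated samples 1 to 3, and of 8.72, 8.65 and 8.63 in 4EGI-1 samples 1 to 3. For both genes every 4EGI-1 value lay above every untreated one. The change of Slc7a11, a cystine transporter subunit gene and the member with the smallest adjusted p, was 1.21 ± 0.06 (SE; limma adjusted p = 3.93e-05). The arrays measure mRNA, and phosphorylation of eIF2α was not analysed here.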

How the data were processed

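RNA from pooled polysome fractions of 6 samples was measured on 1 array each. The authors deposited 1 log2 signal for each probe set and array. Per the submitters' processing notes it came from RMA, with version and settings not given in the sources. RMA brings the arrays close to a common distribution (medians 6.38 to 6.43 here), so a shift of all mRNAs together would not be seen. Precision is limited by having 3 arrays a group.

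Of 34760 probe sets, 21640 carried 1 gene symbol, 1321 several, and 11799 were not listed in the platform annotation. Symbols were updated by Entrez identifier (21553 matched) through RefSeq (GRCm38.p6). Where a gene had several probe sets, the brightest on average across the 6 arrays stood for it.

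The comparison used a moderated linear model (limma 3.58.1, R 4.3.3), two-sided, with Benjamini-Hochberg adjustment over 19937 genes; scripts were tested on simulated data. Named beyond the members were, per list, the gene with the smallest adjusted p in each direction, and 9 fixed genes. Atf6, Atf6b, Ern1, Ern2, Tfrc and neighbouring genes were also named, chosen after their values were seen. So were the ATF4 and CHOP effector genes that did not pass. The members and lists were chosen with earlier results of these data known. The 15 alternatives comprised leaving out each sample, a stricter threshold (adjusted p under 0.01), replicate number as block, array weights, quantile normalization, eBayes with trend and robust settings, averaging probe sets by gene, testing all probe sets, and dropping genes below the median or 25th percentile of signal. A planned comparison with protein length was not run, since protein sequences were not used here.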

Additional observations from a re-analysis of the deposited data

How the results depend on the processing

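Eif2ak3, Ppp1r15a, Dnajc3, Atf4 and Ddit3 kept direction and call in all 15 alternatives. The count of members that fell, 1 (Eif2ak2), became 0 with the replicate number as a block (adjusted p = 0.0531), with every probe set tested (0.0889) and at an adjusted p under 0.01; leaving out single samples gave 0 to 1. At an adjusted p under 0.01, 1488 genes were higher and 1248 lower, against 2286 and 2287, and 9 genes of the pathway lists fell, against 16. Same-numbered samples were not shown to be paired: their deviations correlated at 0.06, 0.11 and -0.02 for numbers 1, 2 and 3. With the replicate block 2097 genes were higher and 1974 lower.

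Differences near 0 changed sign in some settings, and none of these passed in either direction. Leaving out single samples gave -0.092 to 0.0084 for Eif2ak1, -0.078 to 0.030 for Eif2b2, -0.031 to 0.025 for Eif2s2 and -0.018 to 0.053 for Eif2s3x. The upper end for Eif2b2, Eif2s2 and Eif2s3x came without untreated replicate 1. Eif2s2 was also at 0.097 with the mean of its probe sets and at 0.032 after quantile normalization, where Eif2s3x was at 0.081. The cause was not tested. Over all genes the median 95% half-width of a difference was 0.18, which is not the smallest difference that could be called after adjustment. The SEs of the eIF2B differences were 0.06 to 0.08, which limits what could be called among these genes.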
